A study of Mus musculus with 24 samples.

Results

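The effect on gene expression of ACP319, which inhibits phosphoinositide 3-kinase (PI3K) delta, was examined in bone marrow mononuclear cells of Shp2 E76K mice. The mice received ACP319 alone or vehicle for 3 weeks. The labels place 12 of the 24 samples of the study in these groups. They carry specimen numbers 7, 8 and 9 (ACP319) and 1, 2 and 3 (vehicle), each number on 2 samples, and the count table holds 1 column per number, so 6 of 12 specimens were compared. The other specimens came from Shp2 E76K mice given ACP196, which inhibits Bruton's tyrosine kinase (BTK), at numbers 4 to 6, or both inhibitors at numbers 10 to 12. All groups carry the Shp2 E76K allele, and mice without it were not analysed here. The labels call the mice primary, give no age, and do not state whether each number stands for its own mouse. The p-values therefore cover only the spread between specimens, which may be technical.

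PI3K delta is built from the catalytic subunit p110 delta, encoded by Pik3cd, and a regulatory subunit, and is found mainly in leukocytes. It phosphorylates a membrane lipid, which recruits AKT and BTK. Active AKT keeps FOXO transcription factors out of the nucleus and feeds the mTOR pathway, while the lipid phosphatase SHIP1 (Inpp5d) acts against it. Shp2, the phosphatase encoded by Ptpn11, couples growth factor receptors to RAS, and its E76K form is a constitutively active variant used to model juvenile myelomonocytic leukemia.

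With the PI3K inhibitor, 617 of 12742 tested genes (4.84%) were higher and 742 (5.82%) were lower than in vehicle at an edgeR adjusted p under 0.05. The median log2 difference was 1.30 for the higher genes and -1.38 for the lower ones. In CPM the groups did not overlap in 615 of the 617 higher and all 742 lower genes. A lack of overlap in a called gene below therefore describes it and adds no support. Counts of list members called in this fit are to be read against the 4.84% and 5.82% of all tested genes. The higher genes included 6 of 20 erythroid markers, 10 of 22 genes of heme synthesis and handling and 12 of 42 DNA replication genes. The lower genes included 4 of 22 monocyte markers, 9 of 31 interferon-stimulated genes, 6 of 27 components of B-cell receptor signalling, 8 of 32 of RAS and ERK signalling and 6 of 29 of the PI3K pathway, where 1 other member was higher. The smallest adjusted p was 0.0388, and 4543 genes had an unadjusted p under 0.05. The adjusted p of the genes just inside the threshold, AU040320 and Ets2, was 0.04996, and that of the genes just outside, 2810001G20Rik and Arhgap27, was 0.05002. No gene was called by edgeR when any of vehicle replicates 1 to 3, of PI3K inhibitor replicates 8 and 9, or of combination replicates 10 to 12 was left out. The smallest adjusted p then lay between 0.0525 and 0.209, and 2650 to 4242 genes had an unadjusted p under 0.05. There were 4375 calls without BTK inhibitor replicate 5, 3392 without replicate 6 and 1901 without PI3K inhibitor replicate 7.

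The called genes were sorted by length. The higher genes had a median length of 1321 bases in the deposited table and the lower ones 5924.5, against 2835 over all tested genes. In the shortest decile of genes 236 of 1275 were higher and 2 lower, with a median log2 difference of 1.07. In the longest decile 5 of 1275 were higher and 347 lower, with a median of -0.92. Of the higher genes 440 were shorter than the lower quartile of 1782 bases, and of the lower genes 557 were longer than the upper quartile of 4340 bases.

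**Figure D1:**
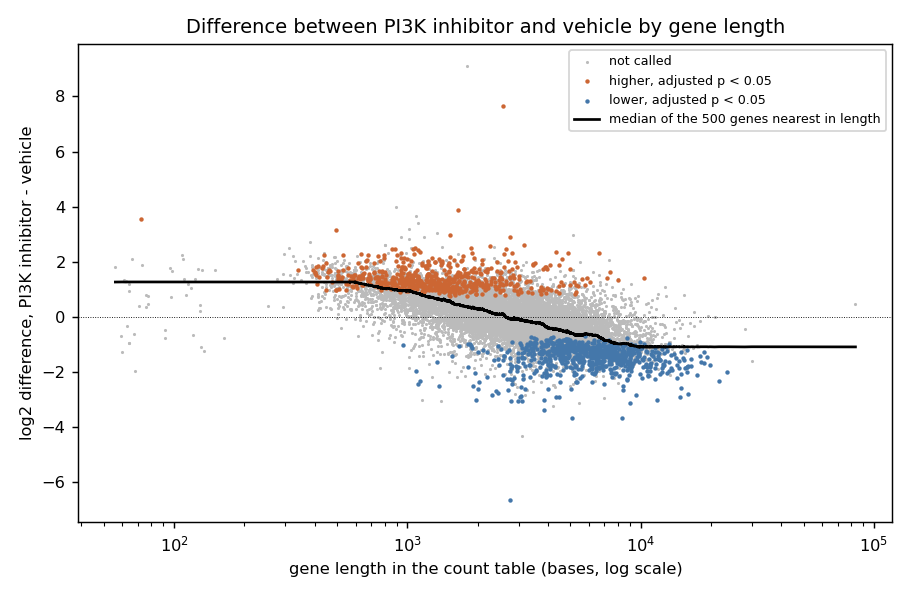
Log2 difference between PI3K inhibitor and vehicle (vertical axis) against gene length in bases (horizontal axis, log scale) for the 12742 tested genes, with the 617 higher and 742 lower genes coloured. The black line is the median of the 500 genes nearest in length, and it falls from above 0 among short genes to below 0 among long ones.

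The trend with length was present in single specimens. In each specimen the deviation of log2 CPM from the gene's mean over all specimens of the study was fitted against log2 length. The sign of this slope is therefore relative to that mean, which includes the BTK inhibitor and combination specimens. The slope was 0.15, 0.40 and 0.12 in vehicle replicates 1 to 3. In PI3K inhibitor replicates 7 to 9 the slope was -0.10, -0.37 and -0.38. The means were 0.22 ± 0.16 and -0.28 ± 0.16 (SD, n = 3), and the groups did not overlap (difference -0.50, exact two-sided permutation p = 0.1, the smallest that 3 against 3 can give). The combination, which also contained ACP319, had slopes of 0.09, 0.25 and 0.29. The BTK inhibitor specimens 4 to 6, which had no ACP319, had slopes of -0.28, -0.35 and 0.18. A slope that was negative relative to the mean of all specimens was thus not confined to those given ACP319 alone. Every vehicle slope was above every PI3K inhibitor slope, so the slope and the treatment cannot be told apart in this comparison.

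**Figure D2:**
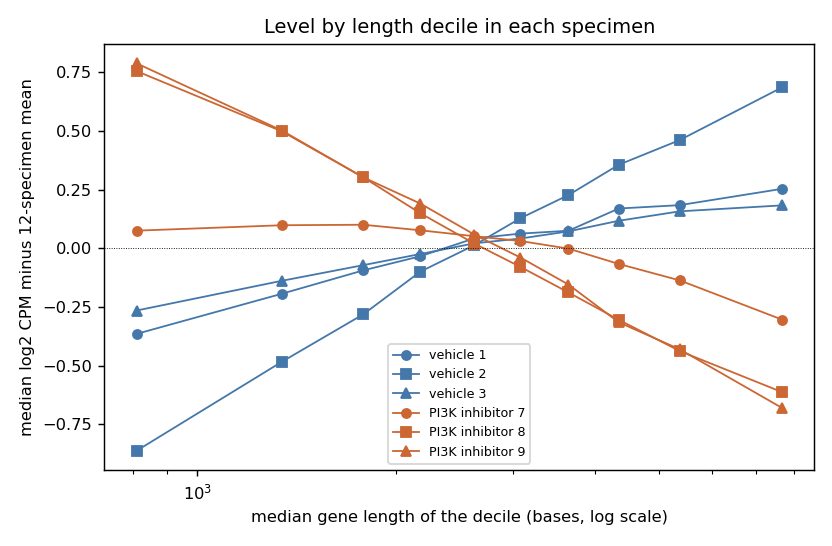
Median log2 CPM of each length decile as a deviation from the 12-specimen mean (vertical axis) against the decile's median length in bases (horizontal axis, log scale), with 1 line per specimen. Vehicle lines rise and PI3K inhibitor lines fall with length, steepest for vehicle 2 and PI3K inhibitor 8 and 9 and shallowest for PI3K inhibitor 7.

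Each gene was therefore also set against genes of like length. In each specimen the median deviation of the 500 tested genes nearest in length was taken from the gene's own deviation on the log2 scale, and the group difference of these values is called the like-length difference below. It is a description without a test. The like-length values of the 3 inhibitor specimens all lay above vehicle in 19% of tested genes and all below in 18.7%. Among the 617 higher genes 597 had a positive like-length difference, with a median of 0.61, and 410 lay wholly above vehicle. Among the 742 lower genes 736 had a negative one, with a median of -0.71, and 592 lay wholly below vehicle. The like-length difference was 1 or more in 184 higher genes and -1 or less in 216 lower genes. Because these genes were called on the same specimens, the counts describe them and lend them no further support.

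A model with a length offset per specimen, fitted without BTK inhibitor replicate 5, called 1238 of 12948 genes higher (9.56%) and 1172 lower (9.05%). It shared 313 higher and 483 lower genes with the model that has no offset and holds all 12 specimens. Those 2 models differ in replicate 5 as well as in the offset. Without replicate 5 and without an offset, edgeR called 2217 of 12948 genes higher and 2158 lower, more than with the offset. When all 12 specimens entered the offset model, edgeR called 0 genes, with 2812 at an unadjusted p under 0.05 and a smallest adjusted p of 0.0614.

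Total counts of the 6 specimens lay between 17920149 and 22154833. The ribosomal RNA gene Rn45s took 0.20% to 0.33% of counts in vehicle and 0.31% to 0.68% with the inhibitor. Outside these groups, BTK inhibitor replicate 5 had 8993950 counts, and Rn45s took 15.43% of them. That specimen is part of the main fit and its estimate of spread. Y-linked transcripts were present in vehicle replicates 1 and 2 and in PI3K inhibitor replicate 8, and with their presence as a covariate 0 genes were called by edgeR, with 4112 at an unadjusted p under 0.05. Myeloid transcripts were abundant in both groups, with a mean of 30472 CPM in vehicle for the granulocyte gene S100a9. In these bulk samples fewer cells of a type and less RNA per cell cannot be told apart.

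The transcripts of the targets and of the altered phosphatase were examined first. Pik3cd was at 215, 252 and 199 CPM in vehicle replicates 1 to 3 and at 128, 115 and 93.4 CPM with the inhibitor. All inhibitor values were below vehicle (log2 -0.99 ± 0.23 SE, edgeR adjusted p = 0.0403). Its like-length difference was -0.37, the median log2 difference of genes of its length being -0.66, and the offset model without BTK inhibitor replicate 5 did not call it (log2 -0.41, edgeR adjusted p = 0.0679). Btk was at 108, 88.5 and 104 CPM in vehicle and 105, 102 and 107 CPM with the inhibitor, and the groups overlapped (log2 0.07 ± 0.21 SE, edgeR adjusted p = 0.836). Ptpn11 was at 92.6, 144 and 93.7 CPM in vehicle and 77.6, 65.3 and 61.4 CPM with the inhibitor (log2 -0.69 ± 0.41 SE, edgeR adjusted p = 0.237). Its like-length difference was -0.03.

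Other components of the PI3K, AKT and mTOR pathway were lower at 6 of 29 tested members and higher at 1, Rps6, against 5.82% and 4.84% of all tested genes. The members had a median log2 difference of -0.96 and a median length of 5004 bases. Pik3r5, the regulatory subunit of the gamma isoform, was at 80.5, 78.9 and 73.1 CPM in vehicle and 37.7, 37.7 and 29.2 CPM with the inhibitor, without overlap (log2 -1.15 ± 0.24 SE, edgeR adjusted p = 0.0388). Inpp5d, the lipid phosphatase SHIP1, was at 172, 257 and 150.2 CPM against 103, 97.1 and 70.0 CPM (log2 -1.10 ± 0.29 SE, edgeR adjusted p = 0.0408). Gsk3b, a kinase that AKT inhibits, was at 63.5, 92.5 and 61.4 CPM against 38.3, 28.8 and 24.3 CPM (log2 -1.25 ± 0.33 SE, edgeR adjusted p = 0.0407). In all 3 genes every inhibitor value was below every vehicle value. Against genes of like length they differed by -0.72, -0.54 and -0.29, and the median over the list was -0.22, with 9 of 29 members wholly below vehicle and 5 wholly above (18.7% and 19% of all tested genes).

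Genes of the FOXO factors and their targets were lower at 3 of 27 tested members and higher at none, against 5.82% and 4.84% of all tested genes. The like-length median was -0.21, with 9 members wholly below vehicle and 4 wholly above (18.7% and 19% of all tested genes). FOXO factors raise transcription of genes such as the insulin receptor gene Insr, the insulin receptor substrate gene Irs2 and the repressor gene Bcl6 when AKT is inactive. Irs2 was at 13.6, 15.1 and 11.1 CPM in vehicle and 3.61, 0.534 and 2.22 CPM with the inhibitor (log2 -2.62 ± 0.64 SE, edgeR adjusted p = 0.0407, and -3.25 without PI3K inhibitor replicate 7). Bcl6 was at 71.1, 72.9 and 61.5 CPM against 34.4, 30.5 and 23.4 CPM (log2 -1.22 ± 0.33 SE, edgeR adjusted p = 0.0417). Insr was at 46.7, 62.9 and 42.8 CPM against 25.5, 18.8 and 16.7 CPM (log2 -1.32 ± 0.29 SE, edgeR adjusted p = 0.0394). No inhibitor specimen reached a vehicle level in these genes. Like-length differences were -2.55 for Irs2 and -1.07 for Bcl6 but -0.31 for Insr, whose 9355 bases put it among genes with a median log2 difference of -1.05.

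Components of B-cell receptor and BTK signalling were lower at 6 of 27 tested members, with a median log2 difference of -0.97. Relative to genes of like length the median was -0.36, and 15 of 27 lay wholly below vehicle, against 18.7% of all tested genes. Rel, the NF-kB subunit c-Rel, was at 13.7, 10.7 and 10.2 CPM in vehicle and 3.82, 2.27 and 1.77 CPM with the inhibitor (log2 -2.12 ± 0.50 SE, edgeR adjusted p = 0.0403). Its like-length difference was -2.24, and -1.22 by the length of its longest GENCODE M21 transcript. Nfatc1, a calcium-dependent transcription factor gene, was at 72.6, 92.1 and 53.7 CPM against 34.2, 26.1 and 18.9 CPM (log2 -1.46 ± 0.37 SE, edgeR adjusted p = 0.0407, like-length difference -0.58). Malt1, a protease gene of the NF-kB pathway, was at 51.4, 53.5 and 45.1 CPM against 28.8, 22.2 and 20.2 CPM (log2 -1.07 ± 0.27 SE, edgeR adjusted p = 0.0407, like-length difference -0.52). The groups did not overlap in these 3 genes. Markers of mature B cells did not pass in either direction by edgeR or DESeq2 (0 of 14, none at an unadjusted p under 0.05, and 1 lower by limma voom), with a median like-length difference of -0.28. Among 18 markers of B-lineage precursors only Erg, a transcription factor gene shared with stem cells, was lower.

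Regulators of RAS and ERK signalling were lower at 8 of 32 tested members and higher at none, against 5.82% and 4.84% of all tested genes. The median log2 difference was -0.39 and the like-length median -0.23. By like-length values 13 members lay wholly below vehicle and 6 wholly above (18.7% and 19% of all tested genes). Cbl, a ubiquitin ligase that takes receptors out of signalling, was at 91.1, 161 and 65.8 CPM in vehicle and 13.03, 6.28 and 5.57 CPM with the inhibitor. The lowest vehicle value was above every inhibitor value (log2 -3.67 ± 0.72 SE, edgeR adjusted p = 0.0388, like-length difference -3.09). Sos2, an exchange factor that loads RAS with GTP, was at 92.4, 106 and 80.7 CPM against 46.8, 23.6 and 28.8 CPM (log2 -1.49 ± 0.31 SE, edgeR adjusted p = 0.0388, like-length difference -0.91). Nf1, which turns RAS off and is itself lost in some juvenile myelomonocytic leukemias, was at 18.1, 28.02 and 17.4 CPM against 8.23, 8.55 and 6.84 CPM (log2 -1.43 ± 0.32 SE, edgeR adjusted p = 0.0394). Its like-length difference was -0.33. Gab2, an adaptor that binds Shp2 and PI3K, was at 31.7, 43.9 and 31.4 CPM against 19.0, 16.8 and 11.5 CPM (log2 -1.18 ± 0.28 SE, edgeR adjusted p = 0.0406, like-length difference -0.53). Genes that promote RAS signalling and genes that restrain it were thus both among the lower members.

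Of 20 tested erythroid markers 6 passed as higher and none as lower, with a median log2 difference of 1.06, and all 20 had a positive like-length difference, with a median of 1.15. The like-length values of 11 lay wholly above vehicle and of 0 wholly below, against 19% and 18.7% of all tested genes. Gata1, the erythroid transcription factor gene, was at 26.6, 59.5 and 54.9 CPM in vehicle and 110.4, 134 and 211 CPM with the inhibitor (log2 1.69 ± 0.43 SE, edgeR adjusted p = 0.0407). Rhd, a red cell membrane protein gene, was at 32.4, 113 and 79.7 CPM against 204, 304 and 356 CPM (log2 1.94 ± 0.44 SE, edgeR adjusted p = 0.0399). Epor, the erythropoietin receptor gene, was at 10.8, 31.7 and 33.8 CPM against 50.1, 56.9 and 98.7 CPM (log2 1.43 ± 0.39 SE, edgeR adjusted p = 0.0423). Vehicle replicate 1 was lowest in all 3 genes, and no inhibitor value fell within the vehicle range.

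Long genes of the red cell membrane skeleton did not show this on the scale of CPM. Sptb, a spectrin gene, and Ank1, the gene of the ankyrin that anchors spectrin, had log2 differences of -0.49 and -0.26 and did not pass. Their like-length differences were 0.95 and 1.06, close to those of short erythroid genes. As a mean over the list, the like-length level was -1.76, -0.01 and -0.41 in vehicle replicates 1 to 3 and 0.14, 0.15 and 0.92 in PI3K inhibitor replicates 7 to 9. Vehicle replicate 1 stood far below the others, and vehicle replicate 2 lay just below PI3K inhibitor replicates 7 and 8. The summed level of the list was 1610 to 4701 CPM in vehicle and 5120 to 8774 CPM with the inhibitor. The 4 listed adult globin genes, defining markers of red cells, were at 0 in every specimen. They could not be compared between the groups, and the reason for the zeros was not tested.

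The heme synthesis list, which also holds a heme-binding protein gene and a biliverdin reductase gene, followed the red cell markers. Of its 22 tested genes 10 were higher and none lower (median log2 difference 1.06, median like-length difference 0.83). By like-length values 12 lay wholly above vehicle and 1 wholly below, against 19% and 18.7% of all tested genes. Alad, the enzyme that makes porphobilinogen, was at 42.0, 91.8 and 104 CPM in vehicle and 199, 335 and 485 CPM with the inhibitor (log2 2.10 ± 0.55 SE, edgeR adjusted p = 0.0407). Uros, a later enzyme of the pathway, was at 21.02, 31.6 and 39.5 CPM against 75.9, 102 and 184 CPM (log2 1.97 ± 0.35 SE, edgeR adjusted p = 0.0388). Hebp1, a heme-binding protein gene, was at 27.1, 45.2 and 58.2 CPM against 165, 215 and 341 CPM (log2 2.47 ± 0.46 SE, edgeR adjusted p = 0.0388). The groups did not overlap in these genes, and PI3K inhibitor replicate 9 was highest in each. Slc25a38, a mitochondrial glycine carrier, and Blvrb, a biliverdin reductase, were higher too, with like-length differences of 0.83 and 1.16. Alas1, the housekeeping form of the first enzyme, differed by log2 0.04 and Alas2, the erythroid form, by 0.82, and neither passed (edgeR adjusted p = 0.92 and 0.38). Of 14 iron handling genes none passed by edgeR (4 at an unadjusted p under 0.05, 2 called by DESeq2 and 7 by limma voom). Tfrc, the transferrin receptor gene, was at 188, 307 and 308 CPM against 489, 467 and 711 CPM (log2 1.06 ± 0.40 SE, edgeR adjusted p = 0.0844), with a like-length difference of 1.60.

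DNA replication genes were higher at 12 of 42 tested members and lower at none, with a median log2 difference of 0.70. Relative to genes of like length the median was 0.50, and 27 of 42 lay wholly above vehicle, against 19% of all tested genes. Orc6, a subunit of the origin recognition complex, was at 46.9, 39.1 and 59.0 CPM in vehicle and 95.2, 126 and 183 CPM with the inhibitor (log2 1.48 ± 0.30 SE, edgeR adjusted p = 0.0388, like-length difference 1.01). Tk1, thymidine kinase, was at 94.4, 96.5 and 118 CPM against 191, 237 and 311 CPM (log2 1.26 ± 0.25 SE, edgeR adjusted p = 0.0388, like-length difference 0.62). Rfc4, a clamp loader subunit, was at 38.5, 38.6 and 56.5 CPM against 89.1, 124 and 174 CPM (log2 1.53 ± 0.33 SE, edgeR adjusted p = 0.0388, like-length difference 0.79). PI3K inhibitor replicate 9 was highest in all 3 genes. Of 32 mitosis genes 2, Cdk1 and Cenpa, were called higher, a share near the 4.84% of all tested genes. The list median was 0.47 and the like-length median 0.40. Of the 32 genes, 16 lay wholly above vehicle by like-length values and 0 wholly below, against 19% and 18.7% of all tested genes. Cdk1, the mitotic kinase, was at 158, 129 and 181 CPM against 237, 349.8 and 421 CPM (log2 1.11 ± 0.28 SE, edgeR adjusted p = 0.0407, like-length difference 1.14), without overlap. Dividing red cell precursors express these genes as well, erythroid markers were higher in the same specimens, and their part in this result was not tested.

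The short genes of ribosomes and mitochondria showed large differences in CPM that were mostly shared with genes of like length. Ribosomal protein genes were higher at 33 of 57 members with a median log2 difference of 1.38, yet the like-length median was 0.32. By like-length values 34 of 57 still lay wholly above vehicle and 0 wholly below, against 19% and 18.7% of all tested genes. Rps2, a protein of the small subunit, was at 816, 1008 and 972 CPM in vehicle and 1664, 2437 and 2487 CPM with the inhibitor (log2 1.24 ± 0.28 SE, edgeR adjusted p = 0.0399). Its like-length difference was 0.30, with overlap between the groups. Nuclear genes of oxidative phosphorylation were higher at 15 of 50 members (median 1.23, like-length median 0.31), proteasome genes at 6 of 36 (1.00 and 0.29) and antioxidant genes at 8 of 25 (1.03 and 0.32). In these lists 25 of 50, 15 of 36 and 7 of 25 lay wholly above vehicle by like-length values, and 1, 2 and 1 wholly below. Mgst3, a microsomal glutathione transferase gene, stood out from genes of its length, at 24.997, 41.8 and 48.4 CPM against 120.3, 185 and 256 CPM (log2 2.29 ± 0.39 SE, edgeR adjusted p = 0.0388, like-length difference 1.09). Atp5o, an ATP synthase subunit gene, did not, at 147, 122 and 169.7 CPM against 238, 337 and 434 CPM (log2 1.20 ± 0.30 SE, edgeR adjusted p = 0.0407, like-length difference 0.13).

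Histone and DNA modifier genes were the long counterpart. They were lower at 10 of 27 members, with a median length of 8350 bases and a median log2 difference of -1.08, and the like-length median was -0.25. Ep300, a histone acetyltransferase, was at 151, 221 and 119.8 CPM in vehicle and 44.7, 28.6 and 28.8 CPM with the inhibitor (log2 -2.27 ± 0.46 SE, edgeR adjusted p = 0.0388), and its like-length difference of -1.29 was larger than the list's. Tet2, a DNA demethylase often lost in myeloid leukemia, was at 36.7, 30.8 and 28.6 CPM against 11.6, 8.95 and 8.80 CPM (log2 -1.71 ± 0.33 SE, edgeR adjusted p = 0.0388, like-length difference -0.71). Both genes were below the vehicle range in every inhibitor specimen. Lysosome and trafficking genes were lower at 7 of 28 members and higher at 1, Ctsl, with a like-length median of -0.22. Lyst, the trafficking regulator mutated in Chediak-Higashi syndrome, was at 256, 345 and 164 CPM against 54.8, 14.4 and 23.9 CPM (log2 -3.04 ± 0.62 SE, edgeR adjusted p = 0.0388, like-length difference -2.13, and log2 -3.73 without PI3K inhibitor replicate 7).

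**Figure D3:**
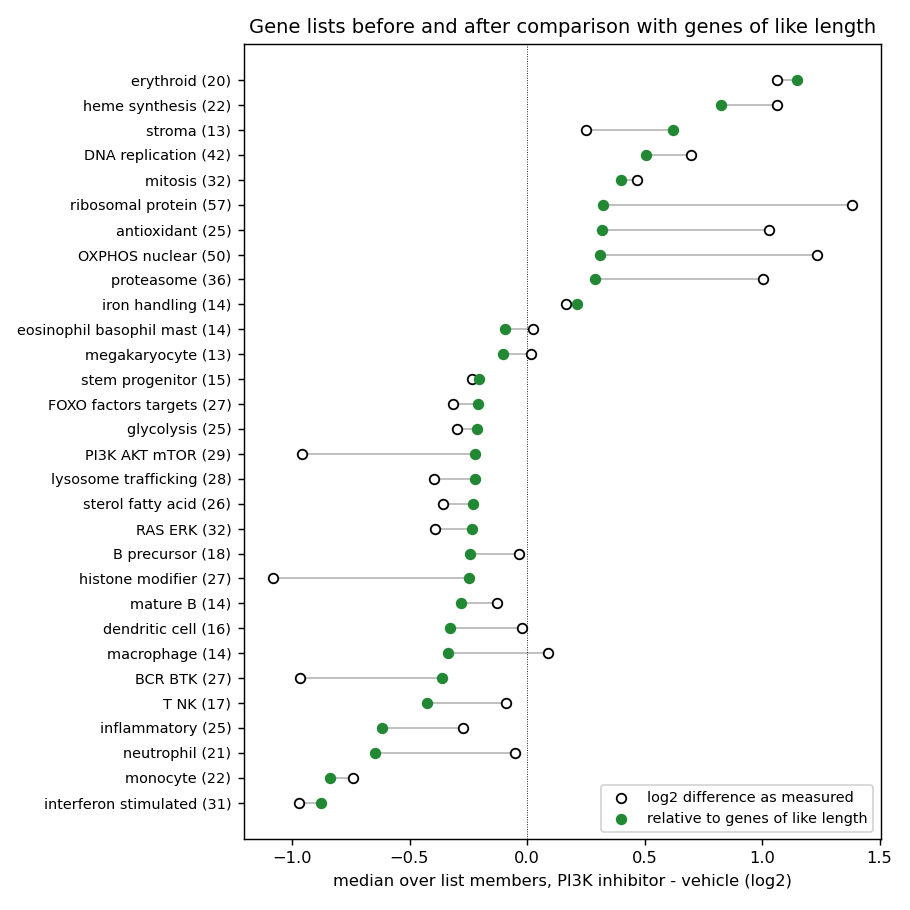
Median over the tested members of each of 30 gene lists (number of members in brackets) of the log2 difference between PI3K inhibitor and vehicle (open circles) and of the like-length difference (green). Ribosomal, oxidative phosphorylation, proteasome, histone modifier and PI3K lists move towards 0, while erythroid, heme synthesis, monocyte and interferon-stimulated lists stay near their value and neutrophil markers move from -0.05 to -0.64.

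Interferon-stimulated genes, the antiviral effectors induced through interferon receptors, were lower at 9 of 31 tested members and higher at none. The median log2 difference was -0.97 and the like-length median -0.88, and 21 of 31 lay wholly below vehicle, against 18.7% of all tested genes. Oasl2, an oligoadenylate synthetase-like gene, was at 128, 94.7 and 141 CPM in vehicle and 41.3, 26.5 and 45.2 CPM with the inhibitor (log2 -1.69 ± 0.37 SE, edgeR adjusted p = 0.0394, like-length difference -1.58). Oas3, an oligoadenylate synthetase that senses double-stranded RNA, was at 174, 192 and 174 CPM against 64.8, 66.2 and 49.5 CPM (log2 -1.58 ± 0.35 SE, edgeR adjusted p = 0.0394, like-length difference -1.09). Slfn5, a Schlafen family gene, was at 79.3, 68.0 and 87.6 CPM against 26.9, 25.7 and 19.95 CPM (log2 -1.69 ± 0.30 SE, edgeR adjusted p = 0.0388, like-length difference -1.04). Ddx58, which encodes the RNA sensor RIG-I, was at 62.9, 68.2 and 57.8 CPM against 30.2, 23.8 and 16.7 CPM (log2 -1.42 ± 0.31 SE, edgeR adjusted p = 0.0394, like-length difference -0.91). The groups were well apart in all 4 genes. The short genes Isg15 and Bst2 had positive log2 differences of 0.91 and 0.84 that did not pass, and like-length differences of -0.37 and -0.26. The mean like-length level of the list was 0.67, 0.25 and 0.86 in vehicle and -0.26, -0.36 and -0.03 with the inhibitor.

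Promoters of these genes can carry the interferon-stimulated response element, bound by interferon-activated factors. Its core was searched as GAAANNGAAA on both strands in the 250 bases before the start of each gene, from the RefSeq table of GRCm38.p6. The core was found at 11 of 22 interferon-stimulated genes with a window (50.0%) and at 327 of 9691 tested genes (3.37%). It was found at 22 of 580 lower genes (3.79%) and 16 of 462 higher genes (3.46%). The windows of Slfn5 (chr11:82951852-82952101, plus strand) and Oas3 (chr5:120777660-120777909, minus strand) are shown 5′ to 3′ because they held the core among the members with the smallest p, and capitals mark it.
Slfn5: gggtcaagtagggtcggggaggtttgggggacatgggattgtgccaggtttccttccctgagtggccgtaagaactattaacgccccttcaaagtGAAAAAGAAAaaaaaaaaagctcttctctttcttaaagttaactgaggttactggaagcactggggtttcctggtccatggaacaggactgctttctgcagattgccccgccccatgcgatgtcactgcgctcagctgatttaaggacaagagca
Oas3: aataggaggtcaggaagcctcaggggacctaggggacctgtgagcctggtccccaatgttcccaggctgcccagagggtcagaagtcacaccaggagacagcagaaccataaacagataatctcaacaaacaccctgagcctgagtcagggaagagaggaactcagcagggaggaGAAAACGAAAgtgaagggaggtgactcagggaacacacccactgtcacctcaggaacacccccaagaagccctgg
The core began 155 bases before the start of Slfn5 and 75 before that of Oas3. The windows of Oasl2 and Ddx58 did not hold these letters. For the replication genes the E2F core, searched as TTTNNCGC, was found at 8 of 34 genes with a window (23.5%), at 1 of the 9 called higher (11.1%), at 783 of 9691 tested genes (8.08%) and at 41 of 462 higher genes (8.87%). A match describes the letters of a window and not binding.

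Monocyte markers were lower at 4 of 22 tested members and higher at none (median log2 difference -0.74, like-length median -0.84). By like-length values 12 of 22 lay wholly below vehicle, against 18.7% of all tested genes. Fn1, the fibronectin gene, was at 536, 1026 and 420.4 CPM in vehicle and 175, 73.7 and 62.3 CPM with the inhibitor (log2 -2.67 ± 0.52 SE, edgeR adjusted p = 0.0388, like-length difference -1.78, and log2 -3.27 without PI3K inhibitor replicate 7). Ace, the angiotensin-converting enzyme gene, was at 20.9, 15.5 and 26.0 CPM against 5.69, 3.34 and 3.10 CPM (log2 -2.35 ± 0.56 SE, edgeR adjusted p = 0.0403, like-length difference -1.72). Cx3cr1, the fractalkine receptor of patrolling monocytes, was at 61.7, 46.7 and 55.4 CPM against 30.7, 25.8 and 19.6 CPM (log2 -1.10 ± 0.32 SE, edgeR adjusted p = 0.0454, like-length difference -0.87). The groups did not overlap in these genes. The list's mean like-length level was 0.70, 0.15 and 0.60 in vehicle and 0.06, -0.55 and -0.58 with the inhibitor, so PI3K inhibitor replicate 7 lay near vehicle replicate 2. Lyz2 and Ly6c2, abundant in classical monocytes, differed by log2 -0.05 and 0.14 without passing, with like-length differences of -0.85 and -0.90.

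Neutrophil markers were lower at 3 of 21 tested members, and the list median was -0.05 (0.01 without vehicle replicate 1 and 0.05 without PI3K inhibitor replicate 9). Against genes of like length all 21 were negative, with a median of -0.64 and 11 wholly below vehicle (18.7% of all tested genes). Csf3r, the G-CSF receptor gene, was at 766, 531 and 574 CPM in vehicle and 284, 226 and 209.8 CPM with the inhibitor (log2 -1.38 ± 0.36 SE, edgeR adjusted p = 0.0407, like-length difference -0.97). Itgam, which encodes CD11b, was at 1388, 1507 and 1189 CPM against 742, 579.8 and 402 CPM (log2 -1.24 ± 0.31 SE, edgeR adjusted p = 0.0407, like-length difference -0.78). Cxcr2, the receptor for neutrophil-attracting chemokines, was at 419.9, 466 and 422 CPM against 260.0, 240.4 and 173 CPM (log2 -0.96 ± 0.24 SE, edgeR adjusted p = 0.0407, like-length difference -0.90). The short granule genes S100a8 and S100a9 differed by log2 0.76 and 0.77 without passing, and by -0.45 and -0.43 against genes of like length. The direction of the abundant short markers therefore depended on the reference. The like-length mean of the list was 0.56, 0.52 and 0.22 in vehicle and -0.06, 0.03 and -0.70 with the inhibitor.

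The length offset model without BTK inhibitor replicate 5 gave a second count for each group, to be read against its 9.56% higher and 9.05% lower genes. By edgeR it called 9 of 20 erythroid, 12 of 22 heme synthesis and 19 of 42 DNA replication genes higher and none of them lower. It called 18 of 31 interferon-stimulated genes, 12 of 22 monocyte markers, 9 of 21 neutrophil markers and 10 of 27 B-cell receptor components lower and none of them higher. Ribosomal protein genes were higher at 18 of 57, oxidative phosphorylation genes at 8 of 50 and proteasome genes at 5 of 36. Signalling lists were split, with 5 of 29 PI3K pathway components lower and 2 higher, 6 of 27 FOXO genes lower and 3 higher, and 7 of 32 RAS and ERK genes lower and 2 higher. Histone modifiers were lower at 5 of 27 and higher at 1. The same specimens without an offset gave 2217 higher and 2158 lower genes of 12948. Higher there were 11 erythroid, 13 heme synthesis, 26 DNA replication, 56 ribosomal protein and 44 oxidative phosphorylation genes. Lower were 19 interferon-stimulated genes, 8 monocyte and 6 neutrophil markers, 16 B-cell receptor and 19 PI3K pathway components. The interferon-stimulated, B-cell receptor and PI3K lists also had 1, 1 and 3 higher. The counts depended on the specimens fitted and on the offset, and the offset model on all 12 specimens called 0. On only the PI3K inhibitor and vehicle specimens it called 693 of 12333 tested genes higher and 718 lower. In that fit, 2 of 20 erythroid, 11 of 22 heme synthesis, 10 of 42 DNA replication and 4 of 57 ribosomal protein genes were higher. Lower in it were 14 of 31 interferon-stimulated genes, 6 of 22 monocyte markers, 5 of 21 neutrophil markers and 4 of 27 B-cell receptor components. It called 2 of 29 PI3K pathway genes lower and 1 higher. The ribosomal protein and PI3K pathway shares were near those of all genes tested in that fit.

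Of 25 inflammatory genes 2, Il6ra and Tlr4, were called lower, a share near the 5.82% of all tested genes (like-length median -0.62). Tlr4, the receptor for bacterial lipopolysaccharide, was at 44.3, 30.9 and 44.5 CPM in vehicle and 21.8, 14.96 and 12.4 CPM with the inhibitor (log2 -1.28 ± 0.35 SE, edgeR adjusted p = 0.0422, like-length difference -1.01). Sterol and fatty acid genes were lower at 3 of 26, among them Fasn, the fatty acid synthase gene, at 54.9, 123 and 48.3 CPM against 23.7, 13.03 and 17.1 CPM (log2 -2.07 ± 0.52 SE, edgeR adjusted p = 0.0407, like-length difference -0.92). In neither gene did the groups overlap. None of 25 glycolysis genes passed by edgeR (6 at an unadjusted p under 0.05, 4 called by DESeq2 and 8 by limma voom). Markers of macrophages (0 of 14), T and NK cells (0 of 17), stem and progenitor cells (0 of 15) and eosinophils, basophils and mast cells (0 of 14) did not pass by edgeR in either direction. At an unadjusted p under 0.05 they had 2, 0, 2 and 4 members, DESeq2 called 1, 0, 1 and 3, and limma voom 4, 0, 0 and 3. Siglec1, a macrophage receptor induced by interferon, was at 18.4, 18.0 and 17.7 CPM against 6.28, 0.868 and 3.55 CPM and missed the threshold (log2 -2.32 ± 0.80 SE, edgeR adjusted p = 0.0667). Single members were higher among dendritic cell markers (Klrd1, 1 of 16) and megakaryocyte markers (Gp9, 1 of 13), with like-length differences of 0.36 and 0.04.

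**Figure D4:**
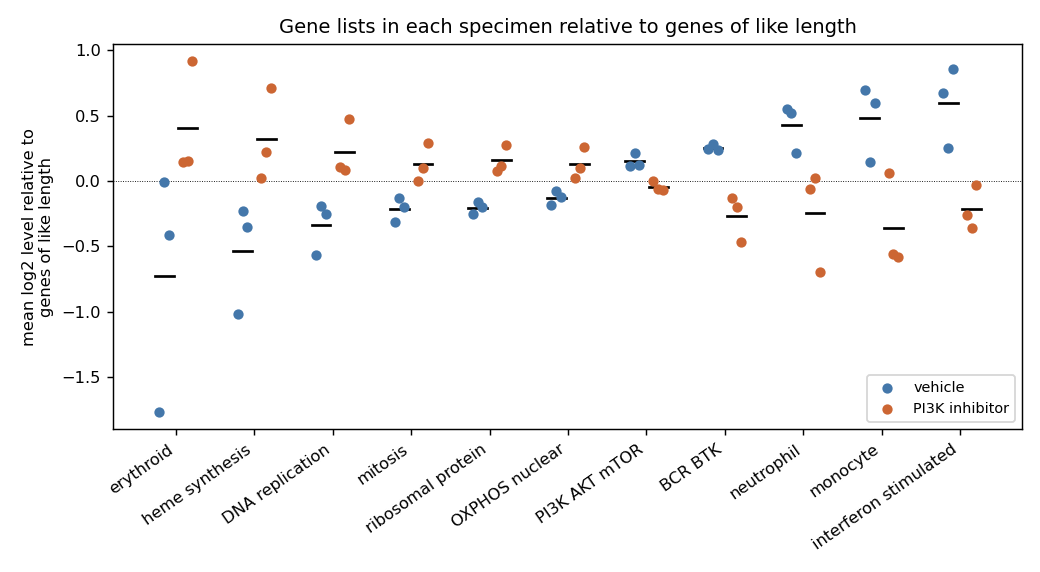
Mean over list members of the log2 level relative to genes of like length (vertical axis) in the vehicle and PI3K inhibitor specimens, shown from left to right as replicates 1 to 3 and 7 to 9, for 11 lists, with black bars for group means. The groups do not overlap in these lists, the erythroid list has 1 low vehicle specimen at -1.76, and the gap is narrow in the monocyte list (0.06 against 0.15).

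Stromal markers, which mononuclear cells should hold few of, were higher at 2 of 13 members. Sparc, a matrix protein gene of osteoblasts and fibroblasts, was at 2.01, 1.80 and 1.68 CPM in vehicle and 7.38, 14.8 and 7.98 CPM with the inhibitor (log2 2.45 ± 0.41 SE, edgeR adjusted p = 0.0388, like-length difference 2.35). Adipoq, an adipocyte hormone gene, was at 0.286 to 1.14 CPM over the 6 specimens and also passed. The collagen genes Col1a1 and Col1a2 went from means of 4.81 and 3.06 to 10.7 and 8.55 CPM and did not pass. The endothelial genes Cdh5, Kdr and Pecam1 had negative like-length differences. The summed level of the list was 72.3 to 94.2 CPM in vehicle and 73.8 to 121 CPM with the inhibitor, and its part in the other differences was not tested.

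Among called genes whose mean log2 CPM reached 2, the largest positive like-length differences were those of Fn3k (2.87), Alad (2.58), Gfap (2.47), Bmp1 (2.43), Camta1 (2.42), Sparc (2.35), Cd59a (2.26), Naca (2.22), Ubac1 (2.18) and Pla2g16 (2.16). Fn3k, a kinase that repairs sugar-modified proteins and is active in red cells, lies on chromosome 11 (mm10, 121434953 to 121450490). It was at 1.92, 7.02 and 3.63 CPM in vehicle and 12.2, 27.5 and 25.02 CPM with the inhibitor (log2 2.36 ± 0.57 SE, edgeR adjusted p = 0.0407, and 2.95 without vehicle replicate 2). Cd59a, which shields cells from complement, was at 3.09, 6.41 and 8.99 CPM against 25.2, 35.4 and 45.2 CPM (log2 2.52 ± 0.71 SE, edgeR adjusted p = 0.0447). Pla2g16, a phospholipase gene, was at 17.1, 26.1 and 39.6 CPM against 64.7, 95.0 and 159.7 CPM (log2 1.95 ± 0.36 SE, edgeR adjusted p = 0.0388). None of these 3 genes had an inhibitor value within the vehicle range. Gfap, the filament gene of astrocytes, was at 0.984 to 13.8 CPM over the 6 specimens.

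Of the higher genes 24 were longer than the upper quartile, and the 6 with the largest log2 difference under the naming conditions were Fn3k, Alad, Bmp1, Naca, Camta1 and Tsc22d1. Camta1, a calmodulin-binding transcription activator gene of 10379 bases on chromosome 4 (mm10, 151059523 to 151861768), was at 7.42, 4.37 and 6.01 CPM in vehicle and 9.80, 18.0 and 19.0 CPM with the inhibitor (log2 1.39 ± 0.34 SE, edgeR adjusted p = 0.0407). Genes of its length had a median of -1.09. Tsc22d1, a leucine zipper gene responsive to TGF-beta, was at 22.4, 33.9 and 37.3 CPM against 60.4, 59.3 and 104 CPM (log2 1.26 ± 0.30 SE, edgeR adjusted p = 0.0403, like-length difference 1.83). Naca, which chaperones new proteins at the ribosome, was at 459, 299 and 541 CPM against 746, 1186 and 1502 CPM (log2 1.40 ± 0.40 SE, edgeR adjusted p = 0.045). A single exon makes up 5916 of the 7145 bases counted for Naca (82.8%), so transcripts that skip it are far shorter than the length used.

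The largest negative like-length differences were those of Lmbrd2 (-3.25), Slfn9 (-3.19), Gatad2b (-3.14), Mgat5 (-3.10), Cbl (-3.09), Wdfy2 (-2.98), Slco4c1 (-2.97), Cep85l (-2.95), Xylt1 (-2.73) and Megf9 (-2.67). Slfn9, a Schlafen family gene on chromosome 11 (mm10, 82980303 to 82991830), was at 28.5, 30.8 and 21.8 CPM in vehicle and 6.28, 0.668 and 2.72 CPM with the inhibitor (log2 -3.04 ± 0.82 SE, edgeR adjusted p = 0.0422). Mgat5, which builds branched N-glycans on surface receptors, was at 20.6, 32.4 and 15.1 CPM against 4.41, 1.00 and 2.60 CPM (log2 -3.06 ± 0.89 SE, edgeR adjusted p = 0.0464). Xylt1, the enzyme that starts glycosaminoglycan chains, was at 24.95, 31.1 and 14.0 CPM against 3.99, 3.47 and 1.96 CPM (log2 -2.89 ± 0.54 SE, edgeR adjusted p = 0.0388). Every inhibitor specimen was below every vehicle specimen. PI3K inhibitor replicate 7 was the highest of its group in all 10 genes, and without it the log2 difference was -3.93 for Lmbrd2, -3.97 for Slfn9, -3.17 for Gatad2b, -3.20 for Wdfy2, -3.37 for Slco4c1, -3.54 for Cep85l and -3.27 for Megf9.

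**Figure D5:**
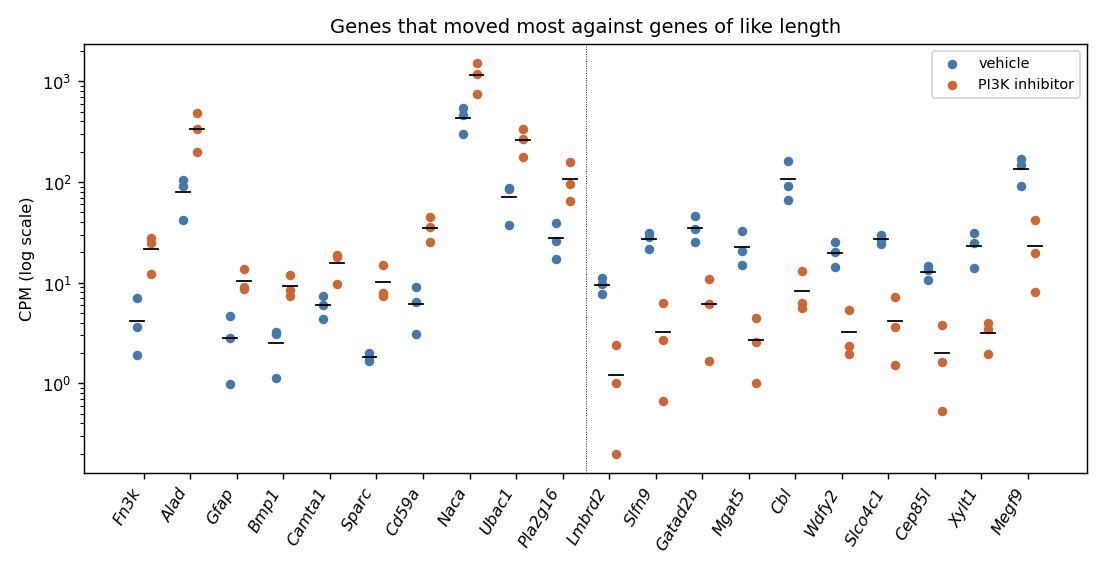
CPM (vertical axis, log scale) of the 10 genes with the largest positive and the 10 with the largest negative like-length difference in the 3 vehicle and 3 PI3K inhibitor specimens, with black bars for group means. The groups do not overlap in any of the 20 genes, but the genes were chosen for like-length values without overlap, so this adds no support. The spread within the inhibitor group is wide for the lower genes (0.200 to 2.38 CPM for Lmbrd2).

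The length given in the count table bears on these differences. All 10 of the lower genes, which were ranked by the deposited length, have a longer transcript in the GENCODE M21 basic set than in the table. Examples are 8099 against 3046 bases for Lmbrd2 and 11372 against 5083 for Cbl. The ratio of GENCODE to deposited length ran from 1.496 for Slfn9 to 3.90 for Gatad2b. Over all tested genes with a GENCODE length 8.95% had one at least 1.5 times the deposited length, as did 11.5% of the lower and 12.8% of the higher genes. With the 500 genes nearest in GENCODE length as reference, the like-length differences of these 10 genes ran from -2.88 for Slfn9 to -1.83 for Megf9. Alad went the other way, with 1247 against 4601 bases, and its like-length difference fell from 2.58 to 1.32. With GENCODE lengths, Fn3k was at 2.70, Camta1 at 2.32 and Cd59a at 2.20. Values wholly above vehicle by both lengths were found for 362 of the 617 higher genes, and wholly below for 545 of the 742 lower genes.

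Only 8 lower genes were shorter than the lower quartile, and 4 of these met the naming conditions. Tarm1, a receptor gene of myeloid cells, was at 20.2, 19.6 and 18.7 CPM in vehicle and 12.6, 8.55 and 7.73 CPM with the inhibitor (log2 -1.02 ± 0.24 SE, edgeR adjusted p = 0.0403), while genes of its 957 bases had a median of 0.94. Rnf125, a ubiquitin ligase that acts on RIG-I, was at 13.1, 16.0 and 10.7 CPM against 6.70, 2.40 and 3.67 CPM (log2 -1.62 ± 0.44 SE, edgeR adjusted p = 0.0425, like-length difference -2.35). Otud3, a deubiquitinase gene, and Nhlrc3 had like-length differences of -1.47 and -1.93, the latter -0.91 by its GENCODE length. Tlr5 and Dhrs9 stood out by both lengths and were chosen after their values were seen. Tlr5, the flagellin receptor gene, was at 12.7, 14.2 and 9.03 CPM against 2.63, 1.67 and 1.52 CPM (log2 -2.61 ± 0.48 SE, edgeR adjusted p = 0.0388), with like-length differences of -2.44 by the deposited and -2.33 by the GENCODE length. Dhrs9, a retinol dehydrogenase gene, was at 59.2, 67.5 and 45.9 CPM against 17.6, 5.95 and 8.42 CPM (log2 -2.42 ± 0.52 SE, edgeR adjusted p = 0.0394), at -2.48 and -2.19.

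The combination was set beside the PI3K inhibitor alone to ask where adding the BTK inhibitor changed expression. No gene of 12742 passed (0%) by edgeR, with 3660 at an unadjusted p under 0.05 and a smallest adjusted p of 0.125. The count depended on the BTK inhibitor specimens that share the estimate of spread. It was 0 without BTK inhibitor replicate 4, 2499 without replicate 5, 1798 without replicate 6 and 3841 without the whole group. With the length offset it was 0 without replicate 5 and 583 without the whole group, so it depended on the offset too. The CPM that follow are not set against genes of like length. Cbl was at 43.4, 92.3 and 103 CPM in combination replicates 10 to 12 and Lyst at 114, 199 and 238 CPM. In both genes all 3 specimens were above the PI3K inhibitor alone, and replicates 11 and 12 lay within the vehicle range. Oasl2 was at 46.7, 45.5 and 51.0 CPM, below every vehicle specimen. Gata1 was at 104, 98.3 and 89.7 CPM. Sparc was at 9.11, 21.2 and 8.53 CPM, which overlapped the PI3K inhibitor alone.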

How the data were processed

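RNA of bone marrow mononuclear cells was made into SMART-Seq v4 full-length cDNA libraries with Nextera XT, per the labels, a preparation that does not mark strand, so antisense and overlapping genes cannot be told apart. The authors deposited raw counts for each gene, as whole numbers, and a column of gene lengths. STAR, featureCounts and mm10 are named in the submitters' processing notes, with settings not given in the sources used here. Both samples of a specimen appear as 1 column. Of 24421 genes 6573 had no count, and 95.7% of symbols matched the reference. Replicates differed beyond counting noise (chi-square over its degrees of freedom 32.1 or more).

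Genes passing filterByExpr (smallest count 10, total 15) were scaled by TMM and tested with edgeR 4.0.16 (R 4.3.3) quasi-likelihood in a group-means fit over all 12 specimens, with Benjamini-Hochberg adjustment over 12742 genes and a threshold of 0.05. CPM are scaled to tested genes, and a prior count of 2 was added before log2 CPM was taken. Like-length values used the 500 genes nearest in deposited length.

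The groups, the 31 gene lists (12 of cell types, 18 of pathways, 1 of Y-linked genes and Xist) and the rule for named genes were chosen with earlier results of these data known. The rule took the 10 called genes per direction with the largest like-length difference (mean log2 CPM at least 2, no overlap, same sign), up to 6 per direction against the length trend, and up to 4 called members per list (2 with the smallest p where none passed), plus Pik3cd, Btk and Ptpn11. Alternatives were DESeq2 1.42.0, limma 3.58.1 voom, other scaling, filters and specimens, and length offsets (spline, 5 degrees of freedom). Y-linked presence, the fit without the BTK inhibitor group and GENCODE M21 lengths were added after seeing the data. The fits were tested on counts simulated with and without a length trend. Noise was drawn from the same spread per gene in all specimens, so the dependence of the calls on single specimens was not covered.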

Additional observations from a re-analysis of the deposited data

How the results depend on the processing

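The counts of higher and lower genes (617 and 742) stayed within 1.5 times under the other scalings and the filters on low counts. Leaving out hemoglobin genes kept 12741 of the 12742 tested genes, so it could hardly change the counts (616 and 739). They were 1578 and 1612 by DESeq2, 2431 and 2340 by limma voom, 1998 and 2059 with only the 2 groups compared, and 2491 and 2499 without the BTK inhibitor group. With a length offset they were 0 and 0 over all 12 specimens, 1385 and 1319 without the BTK inhibitor group, 1238 and 1172 without BTK inhibitor replicate 5, and 693 and 718 with only the 2 groups compared. With GENCODE lengths in the offset they were 0 and 0, and 1261 and 1189 without replicate 5. With the Y-linked covariate they were 0 and 0. Leaving out 1 specimen at a time gave 0 to 2217 higher and 0 to 2158 lower genes, and 0 to 2499 calls between the combination and the PI3K inhibitor (3841 without the BTK inhibitor group). With the length offset, the calls between the combination and the PI3K inhibitor were 0 without replicate 5 and 583 without the BTK inhibitor group. The causes were not tested.

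The difference in length slope was -0.41 to -0.60 without each specimen in turn. Like-length counts kept within 1.5 times with 200 or 1000 neighbours. Among named genes, sign changes were found for Btk and Vps13d: Btk ran from -0.018 (without vehicle replicate 2) to 0.12 over the specimens left out and was between -0.017 and -0.018 with the 3 GENCODE offsets, its like-length difference was 0.026 with 1000 neighbours, and that of Vps13d was 0.042 with 200. List medians of log2 difference that changed sign were those of neutrophil, B precursor (-0.04 to 0.41 without vehicle replicate 3), megakaryocyte (0.02 to -0.42 without vehicle replicate 3), macrophage, dendritic cell, T and NK, and eosinophil, basophil and mast cell markers and of iron handling genes (0.16 to -0.16 without the filter on low counts). No paired analysis was possible because the specimen numbers are not shared between groups. Depth limits genes near 1 CPM, such as Adipoq.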
